A study of Mus musculus with 4 samples.

Results

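The genes described here are 10 genes of the T-cell receptor and of early T-lineage transcription: Cd3d, Cd3e, Cd3g, Trbc1, Trbc2, Tcrg-C1, Tcrg-C2, Trdc, Tcf7 and Bcl11b. They were taken by symbol from the 32285 genes of each matrix, and all 10 were found. Their UMIs (unique molecular identifiers, which count captured RNA molecules) were followed in cell barcodes with at least 1000 detected genes and at most 10% mitochondrial UMIs. A T-cell receptor is built from an alpha and beta chain or a gamma and delta chain, held on the membrane by the CD3 gamma, delta and epsilon chains that carry the signal inward. Tcf7 encodes TCF-1, which acts downstream of Notch in the first thymic progenitors, and Bcl11b encodes a zinc-finger factor that seals commitment to the T lineage. Innate lymphoid cells, which carry no rearranged antigen receptor, also use TCF-1, BCL11B and GATA3, and can transcribe unrearranged receptor constant regions.

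The study profiled RNA and surface protein together in single mouse LSK cells, the lineage-negative, Sca1-positive, Kit-positive fraction of bone marrow that holds blood stem cells and multipotent progenitors. The cells were CD45.2 positive, and all 4 libraries carry a label of 10 weeks after transplantation. There was 1 library each for the labels control (library name WT), Mll3 deleted, Mll4 deleted and Mll3/4 deleted. The labels do not give the deletion system, the strain, the recipients, the age at transplantation or the number of mice pooled. Mll3 and Mll4 are histone methyltransferases encoded by Kmt2c and Kmt2d. Kmt2c stood at 68.9, 35.3, 61.3 and 42.3 CPM (UMIs of a gene per 1000000 gene UMIs of the library) under the control, Mll3, Mll4 and Mll3/4 labels. Kmt2d was at 24.6, 21.6, 22.6 and 25.4 CPM in the same order, so it was not lower in the Mll3/4-labelled library, and libraries are named here by their labels. A count at the 3-prime end may miss an internal deletion.

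The filter kept 7274, 6101, 4793 and 4748 barcodes in the control, Mll3-, Mll4- and Mll3/4-labelled libraries, with median depths of 14454, 15381, 21400 and 8920 UMIs. Any 2 libraries shared 7 to 14 barcode sequences. The Mll3/4-labelled library stood apart from its label as an LSK sort: 4719 of its 4748 kept barcodes (99.4%) fell in clusters with B-lineage markers, against 15 of 7274 (0.206%), 156 of 6101 (2.56%) and 8 of 4793 (0.167%) in the control, Mll3- and Mll4-labelled libraries. In the Mll4-labelled library, 2634 of the 7702 deposited barcodes had under 1000 genes, against 224 to 280 in the other 3. Its kept barcodes also included 986 with monocyte/macrophage markers and 628 with mast-cell or basophil markers, against 16 and 11 in the control. The cluster with stem-cell (HSC) markers held 0.146% of its kept barcodes, against 31.0% in the control. Granulocyte-monocyte markers marked 20.7%, against 1.25%. Ratios of this library to the control therefore compare unlike cell mixtures, and the Mll4 label and the cell makeup cannot be told apart in them. The Mll3-labelled makeup differed from the control too. Its cluster with HSC markers held 44.4% of barcodes against 31.0%, and cluster 0, which got no name, held 16.3% against 37.6%. The Mll3 label and the cell makeup cannot be told apart in its ratios either. With 1 library per genotype there was no replicate, so no difference was tested. The 95% intervals given (exact Poisson for levels, exact conditional binomial for ratios, Clopper-Pearson for shares) cover counting error only. They do not cover the spread between animals, and many UMIs of a gene can come from few barcodes. In summed UMIs, fewer cells with a transcript and less transcript per cell cannot be told apart, and the barcode counts are therefore given beside them.

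On the GRCm38 build, the CD3 genes lie within a short stretch of chromosome 9: Cd3g at chr9:44969572-44980431 on the minus strand, Cd3d at chr9:44981786-44987339 on the plus strand and Cd3e at chr9:44998740-45009627 on the minus strand (GENCODE M21). Cd3g and Cd3d are transcribed away from each other from start sites 1355 bases apart. Their upstream windows are shown because these neighbours differed in level between libraries. Each runs from 250 to 61 bases before the RefSeq start (RefSeq, GRCm38.p6), read 5′ to 3′ on the strand of the gene, and overlaps no GENCODE exon. Capitals mark CTTTGA or CTTTGT on either strand (TCAAAG and ACAAAG on the other), letters of the TCF/LEF core motif.
Cd3g, chr9:44980492-44980681, minus strand: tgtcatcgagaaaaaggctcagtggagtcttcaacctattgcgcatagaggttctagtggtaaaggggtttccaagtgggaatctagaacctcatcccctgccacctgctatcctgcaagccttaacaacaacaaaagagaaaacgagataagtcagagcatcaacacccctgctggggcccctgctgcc
Cd3d, chr9:44981536-44981725, plus strand: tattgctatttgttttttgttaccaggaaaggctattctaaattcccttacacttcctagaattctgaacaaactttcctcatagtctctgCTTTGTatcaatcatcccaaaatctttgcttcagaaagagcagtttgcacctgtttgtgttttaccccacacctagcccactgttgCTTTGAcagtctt
Cd3e, chr9:45009672-45009861, minus strand: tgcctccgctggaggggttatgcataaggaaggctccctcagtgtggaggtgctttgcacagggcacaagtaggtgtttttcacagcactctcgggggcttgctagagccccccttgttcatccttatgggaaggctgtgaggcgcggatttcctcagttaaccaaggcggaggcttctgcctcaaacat
The Cd3d window held 2 matches, and the Cd3g and Cd3e windows held 0. Of 32851 RefSeq windows of the same 190 bases, 7393 (22.5%) held at least 1 match. A match is a run of letters and not a measured binding site.

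Among the constant-region genes, Trbc1 (chr6:41538218-41539881, plus strand) and Trbc2 (chr6:41546730-41548352, plus strand) encode the 2 alternative constant parts of the beta chain. Their first coding exons were identical at 374 of 375 bases. The 60 bases of exon 1 around the single difference, in capitals, show why reads from this exon can rarely be assigned to 1 of the 2 genes.
Trbc1, chr6:41538447-41538506, plus strand: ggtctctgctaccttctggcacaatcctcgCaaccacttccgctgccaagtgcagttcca
Trbc2, chr6:41546959-41547018, plus strand: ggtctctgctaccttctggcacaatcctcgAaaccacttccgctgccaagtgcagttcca
Of the 50-base runs of the Trbc1 transcript, 41.1% also occurred in Trbc2, but 0% of those in its last 200 bases, which the 3-prime chemistry reads first. Tcrg-C1 (chr13:19214103-19217024, plus strand) and Tcrg-C2 (chr13:19304649-19307551, minus strand), constant parts of the gamma chain, shared 36.4% of the runs in their last 200 bases. The split of UMIs between Tcrg-C1 and Tcrg-C2 is therefore less certain than that between Trbc1 and Trbc2. Trdc, the constant part of the delta chain, lies at chr14:54142851-54148868, Tcf7 at chr11:52252371-52283014 and Bcl11b at chr12:107910403-108003602.

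All 10 genes were scarce in the control, at 0.369 to 3.44 CPM, and the 3 mutant labels moved away from it in different ways. In the Mll3-labelled library, 9 of 10 were at least 2-fold higher and 0 lower, with Cd3d the exception. In the Mll4-labelled library, Trbc1, Trbc2 and Bcl11b were at least 2-fold higher by level. Cd3d, Cd3e, Cd3g, Trdc and Tcrg-C2 were at least 2-fold lower by level, but not all of them by share of barcodes. In the Mll3/4-labelled library, 0 were higher and 10 of 10 lower. Among all genes that averaged 1 CPM or more over the 4 libraries, the shares at least 2-fold higher and lower were 3.4% and 1.79% in the Mll3-labelled library (12654 genes). They were 9.55% and 6.57% in the Mll4-labelled library (12675 genes) and 10.6% and 17.4% in the Mll3/4-labelled library (12695 genes). Of the 10 genes, 7 passed that minimum in each comparison, with 7 higher and 0 lower, then 3 higher and 2 lower, then 0 higher and 7 lower. Over all 10, with counts of 0 taken at 3 UMIs, the median log2 ratio to the control was 1.92, -0.69 and -4.68 for the Mll3, Mll4 and Mll3/4 labels, beside medians over all genes passing the minimum of 0.10, -0.10 and -0.13. The 3 comparisons share the control library.

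**Figure D1:**
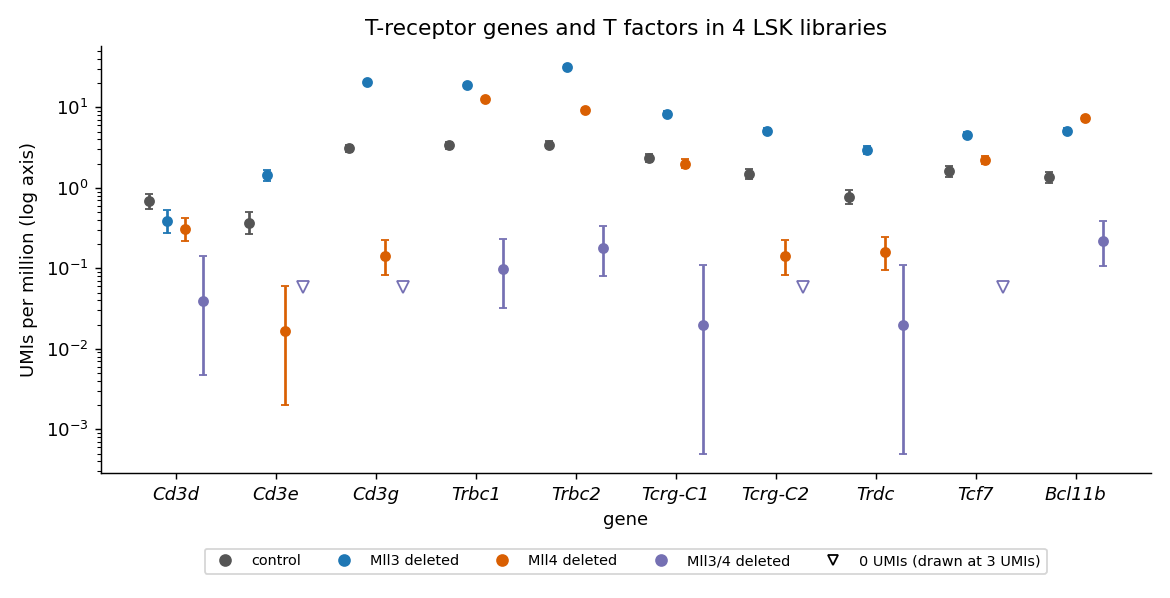
Level of each gene (x axis) in CPM (y axis, log scale) in the 4 libraries, with 95% Poisson intervals, and open triangles at the level of 3 UMIs where 0 were counted. The Mll3-labelled library was highest for 8 of the 10 genes, the control for Cd3d and the Mll4-labelled library for Bcl11b.

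Cd3g, the gamma chain, had the most UMIs of the CD3 genes in the control and the Mll3-labelled library. It was at 3.10 CPM in the control (370 UMIs in 14 barcodes), 20.6 in the Mll3-labelled library (2184 UMIs in 71 barcodes), 0.141 in the Mll4-labelled library (17 UMIs in 8 barcodes) and 0 in the Mll3/4-labelled library. The Mll3-labelled level was 6.64-fold the control level (5.95 to 7.45), and the Mll4-labelled level was 21.4-fold lower, a log2 ratio of -4.42 (-5.26 to -3.76). The Mll3/4-labelled level, taken at 3 UMIs for a count of 0, was at least 52.5-fold lower. The intervals of the 4 libraries did not overlap.

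Cd3e encodes the epsilon chain, which pairs with the gamma or the delta chain. It too was highest in the Mll3-labelled library and lower than the control under the Mll4 and Mll3/4 labels. It was at 0.369 CPM in the control (44 UMIs in 8 barcodes), 1.44 in the Mll3-labelled library (152 UMIs in 44 barcodes), 0.0166 in the Mll4-labelled library (2 UMIs) and 0 in the Mll3/4-labelled library. The Mll3-labelled level was 3.86-fold the control level (2.77 to 5.58). With 2 UMIs, the Mll4-labelled log2 ratio of -4.17 had a wide interval, from -7.57 to -2.54, and the Mll3/4-labelled level was at least 6.24-fold lower than the control. The Mll4- and Mll3/4-labelled levels could not be ordered, as a count of 0 taken at 3 UMIs allowed 0.0591 CPM in the latter.

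Cd3d, the delta chain, did not follow its neighbours. It was at 0.679 CPM in the control (81 UMIs in 25 barcodes), 0.387 in the Mll3-labelled library (41 UMIs in 32 barcodes), 0.307 in the Mll4-labelled library (37 UMIs in 32 barcodes) and 0.0394 in the Mll3/4-labelled library (2 UMIs in 2 barcodes). The Mll3- and Mll4-labelled intervals overlapped. Its log2 ratios to the control were -0.80 (-1.39 to -0.25), -1.14 (-1.75 to -0.57) and -3.79 (-7.18 to -2.21). In the control, 66.7% of the Cd3d UMIs came from 2 barcodes, against 14.6% in the Mll3-labelled library. Without the highest barcode of each library the Mll3- and Mll4-labelled ratios were -0.28 and -0.58, so the Mll4-labelled value was then within 2-fold of the control. By share of barcodes, at unequal depths, Cd3d was higher under the Mll4 label, at 0.668% against 0.344%, or 1.94-fold (1.12 to 3.42). The same ratio of shares was 0.379 (0.0393 to 1.90) for Cd3e and 0.867 (0.315 to 2.22) for Cd3g. Those shares did not differ beyond counting error.

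The beta-chain constant regions had the largest UMI sums of the 10 genes in the control. Trbc1 was at 3.37 CPM in the control (402 UMIs in 33 barcodes), 19.2 in the Mll3-labelled library (2034 in 120 barcodes), 12.6 in the Mll4-labelled library (1521 in 341 barcodes) and 0.0984 in the Mll3/4-labelled library (5 UMIs in 2 barcodes). Trbc2 was at 3.44 CPM (411 UMIs in 50 barcodes), 32.2 (3408 in 168 barcodes), 9.39 (1133 in 289 barcodes) and 0.177 (9 in 3 barcodes) in the same order. The Mll3-labelled levels were 5.70-fold (5.12 to 6.36) and 9.33-fold (8.43 to 10.4) those of the control for Trbc1 and Trbc2, and the Mll4-labelled levels 3.74-fold (3.35 to 4.19) and 2.72-fold (2.43 to 3.06). The Mll4-labelled library thus had more barcodes with each gene than the Mll3-labelled library but fewer UMIs.

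The gamma- and delta-chain constant regions were higher in the Mll3-labelled library by level and by barcodes. In the Mll4-labelled library Tcrg-C1 was in more barcodes than in the control at a lower level. Trdc and Tcrg-C2 were lower there by level, while their shares of barcodes did not differ from the control beyond counting error. Tcrg-C1 was at 2.35, 8.38, 1.99 and 0.0197 CPM under the control, Mll3, Mll4 and Mll3/4 labels, with overlapping intervals for the control and the Mll4-labelled library. Tcrg-C2 was at 1.48, 5.15, 0.141 and 0 CPM, and Trdc at 0.771, 2.98, 0.157 and 0.0197 CPM, in the same order. The Mll3-labelled levels were 3.56-, 3.46- and 3.86-fold those of the control for Tcrg-C1, Tcrg-C2 and Trdc. Tcrg-C1 was found in 33, 76, 118 and 1 barcodes, Tcrg-C2 in 21, 61, 12 and 0, and Trdc in 16, 68, 8 and 1, in the same order. The share of barcodes with Tcrg-C1 was 0.454% in the control and 2.46% in the Mll4-labelled library, that with Tcrg-C2 0.289% and 0.2504%, and that with Trdc 0.220% and 0.167%. The ratio of the Mll4-labelled to the control share was 0.867 (0.389 to 1.85) for Tcrg-C2 and 0.759 (0.281 to 1.88) for Trdc. The Mll4-labelled log2 ratios of level were -0.24 (-0.50 to 0.01), -3.36 (-4.21 to -2.68) and -2.26 (-3.09 to -1.57) for Tcrg-C1, Tcrg-C2 and Trdc. With every barcode given equal weight, the Tcrg-C1 ratio in the Mll4-labelled library was 1.23. Tcrg-C4, a further gamma constant region that shared no 50-base run with Tcrg-C1, was at 1.19, 3.81, 5.07 and 0.0197 CPM. Trac, the constant part of the alpha chain, was nearly absent, with 4, 14, 9 and 1 UMIs in the 4 libraries.

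Both transcription factors were higher than the control under the Mll3 and Mll4 labels, Tcf7 by less than 2-fold under the latter. Tcf7 was at 1.60 CPM in the control (191 UMIs in 51 barcodes), 4.56 in the Mll3-labelled library (483 in 103 barcodes), 2.21 in the Mll4-labelled library (267 in 111 barcodes) and 0 in the Mll3/4-labelled library. The Mll3-labelled level was 2.84-fold the control (2.40 to 3.39), the Mll4-labelled level 1.38-fold (1.14 to 1.67), or a log2 ratio of 1.504 with every barcode given equal weight, and the Mll3/4-labelled level at least 27.1-fold lower. Bcl11b was at 1.37 CPM in the control (163 UMIs in 29 barcodes), 5.08 in the Mll3-labelled library (538 in 79 barcodes), 7.27 in the Mll4-labelled library (878 in 269 barcodes) and 0.217 in the Mll3/4-labelled library (11 in 7 barcodes). Its ratio to the control was 3.71-fold (3.12 to 4.46) in the Mll3-labelled and 5.31-fold (4.50 to 6.33) in the Mll4-labelled library, and 6.05-fold lower in the Mll3/4-labelled library. Bcl11b was the only gene of the 10 with its highest level under the Mll4 label.

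Depth differed between libraries, so shares of barcodes with a UMI were also taken after every barcode was thinned to 3000 UMIs, which left out 14, 17, 134 and 33 shallower barcodes of the control, Mll3-, Mll4- and Mll3/4-labelled libraries. At that depth Trbc1 or Trbc2 was found in 0.482%, 2.02%, 6.07% and 0.0424% of barcodes in the same order, and Bcl11b in 0.234%, 0.986%, 3.39% and 0.0424%. Cd3g was found in 0.152%, 0.871%, 0.0429% and 0 of 4715 barcodes, the last allowing a share of up to 0.0636%. Unthinned, the shares of barcodes with Trbc1 or Trbc2 were 0.797%, 3.15%, 8.80% and 0.0842%.

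Free RNA in droplets can give UMIs in cells that do not transcribe a gene, so clusters of other cell types were read as a background. Thinned to the same depth, Trbc1 or Trbc2 was found in 1 of 977 granulocyte-monocyte-like barcodes (0.102%) of the Mll4-labelled library, 1 of 2256 HSC-like barcodes (0.0443%) of the control and 9 of 2707 HSC-like barcodes (0.332%) of the Mll3-labelled library. Bcl11b was found in 1 of 977, 0 of 2256 and 0 of 2707 of the same barcodes. Cd3d differed from the others, with 3 of 2256 HSC-like barcodes (0.133%) in the control against 0.110% over the whole library, so its thinned share there was not above this background. Unthinned, Cd3d was also found in 5 of 20 neutrophil-like control barcodes (25%).

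Whether receptor genes occurred together in 1 cell was measured by co-detection, a UMI of at least 2 of Cd3d, Cd3e and Cd3g together with at least 1 UMI of a T-receptor constant region. It was met by 8 of 7274 control barcodes (0.110%, 0.0475 to 0.217) and 46 of 6101 Mll3-labelled barcodes (0.754%, 0.553 to 1.004). The Mll3-labelled share was 6.86-fold that of the control (3.20 to 16.8). It was met by 0 of 4793 Mll4-labelled and 0 of 4748 Mll3/4-labelled barcodes, which allows shares of up to 0.0626% and 0.0632% when 3 barcodes are taken as the limit (Clopper-Pearson upper bounds of 0.0769% and 0.0777%). After thinning to 3000 UMIs the control and Mll3-labelled shares were 0.0551% and 0.394%. The opposite pattern, Bcl11b with Trbc1 or Trbc2 but no Cd3d, Cd3e or Cd3g UMI, was met by 13 control (0.179%), 20 Mll3-labelled (0.328%), 224 Mll4-labelled (4.67%, 4.09 to 5.31) and 0 Mll3/4-labelled barcodes.

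**Figure D2:**
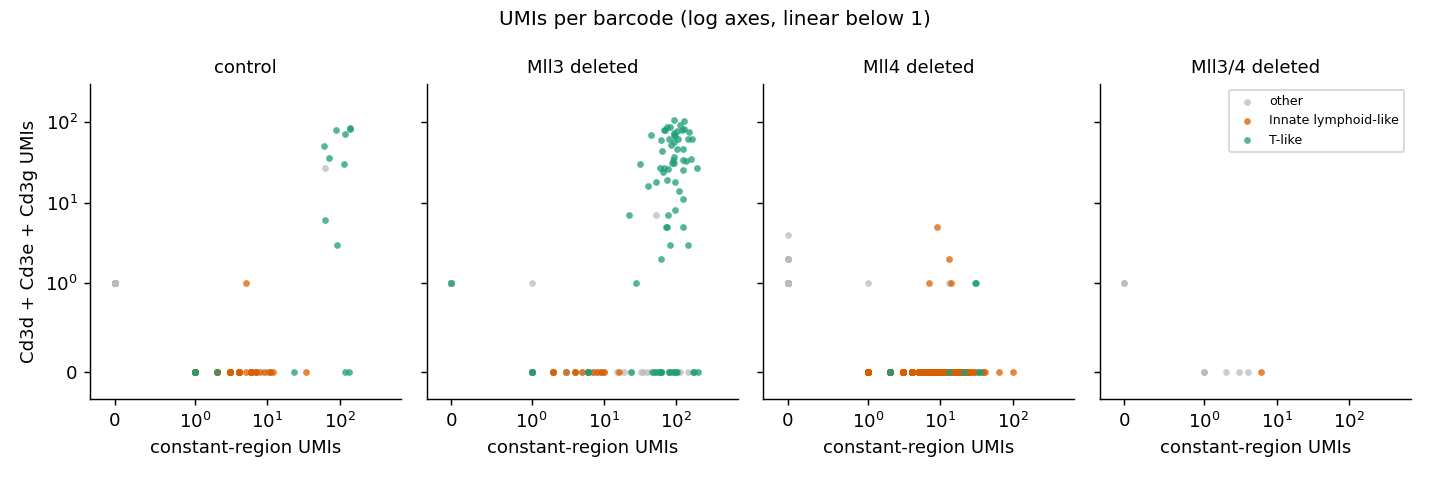
Each point is 1 barcode with at least 1 UMI of a CD3 gene or a constant region, with summed constant-region UMIs (x axis) against summed Cd3d, Cd3e and Cd3g UMIs (y axis), both on log axes that are linear below 1, colored by cluster. The control and Mll3-labelled panels have a group of T-like barcodes high on both axes, 8 and 46 of them co-detecting, while 473 of the 481 Mll4-labelled barcodes with a constant region had 0 CD3 UMIs and lie along the x axis.

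Each co-detecting barcode carried many receptor transcripts, with per-barcode ranges that overlapped between the control and the Mll3-labelled library. Cd3g had a median of 45.5 UMIs (1 to 76) in the 8 control barcodes and 39 (1 to 97) in the 46 Mll3-labelled barcodes. Trbc1 had medians of 22 and 23 UMIs, Trbc2 of 28.5 and 36.5, and Bcl11b of 12 and 8. Cd3d was found in 6 of 8 and 18 of 46, Trdc in 8 of 8 and 42 of 46, and Tcrg-C1 in 8 of 8 and 46 of 46. Trac was found in 0 of 8 and 1 of 46, and Ptcra, the surrogate alpha chain of thymic precursors, in 1 of 8 and 4 of 46. Cd4 had 0 UMIs in both groups, while Cd8a was found in 0 of 8 and 1 of 46.

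Other genes in these barcodes belong to early lymphoid cells and to T-cell signaling. Dntt, which adds bases at receptor gene joints, was found in 8 of 8 control and 46 of 46 Mll3-labelled barcodes, with medians of 17.5 and 20.5 UMIs. Lck and Lat, the kinase and the adaptor that act just below CD3, were found in all of the 8 and all of the 46. Il2ra was found in 7 and 44, Notch1 in 8 and 44, and its target Hes1 in 6 and 32. The granzyme gene Gzma was found in 6 and 29. Rag1, needed to rearrange receptor genes, was found in 0 and 3.

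On the surface-protein side, 7 of the 8 control and 42 of the 46 Mll3-labelled co-detecting barcodes fell in the MPP3 gate (CD150 negative, CD48 positive, CD135 negative). That gate held 44.1% of all control and 22.1% of all Mll3-labelled barcodes. The median CD48 antibody count was 3206.5 in the control co-detecting barcodes against 698 in the library, and 5167.5 against 269 in the Mll3-labelled library. CD117, the Kit protein on which the sort was gated, had medians of 49 against 217 in the control and 74 against 408 in the Mll3-labelled library, and CD34 had 29.5 against 170 and 39.5 against 272. Kit transcripts were found in 6 of 8 and 22 of 46. Their median depths were 20846 and 15624.5 UMIs, beside 14454 and 15381 over the libraries, and 0 and 1 of them were among the barcodes with the highest doublet scores.

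The barcodes of all libraries were clustered together without the T-lineage genes, and the clusters were then named from marker lists, so membership did not rest on the 10 genes but the T-like name did. Of 21 clusters, 4 and 13 were T-like and 7 was innate lymphoid-like. Cluster 4 held 6 control and 29 Mll3-labelled barcodes, and cluster 13 held 57 control, 109 Mll3-labelled and 19 Mll4-labelled barcodes. Cluster 7 held 47, 18, 346 and 1 barcodes of the control, Mll3-, Mll4- and Mll3/4-labelled libraries. As 84.0% of cluster 7 came from the Mll4-labelled library, a cell type and a feature of that library cannot be told apart by membership alone. Its Mll4-labelled barcodes had a median depth of 7571.5 UMIs, beside 21400 over that library.

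In the control and Mll3-labelled libraries the UMIs of the receptor genes were concentrated in the T-like clusters. These clusters were 0.866% and 2.26% of barcodes and held 89.9% and 98.5% of the summed Cd3d, Cd3e and Cd3g UMIs, and 74.5% and 83.9% of the Trbc1 and Trbc2 UMIs. For Bcl11b the shares of UMIs were 82.8% and 92.2%, and for Trdc 95.7% and 96.2%. Barcodes were less concentrated. The T-like clusters held 15 of 58 control and 75 of 192 Mll3-labelled barcodes with Trbc1 or Trbc2. They held 9 of 14 and 55 of 71 with Cd3g, 13 of 29 and 65 of 79 with Bcl11b, and 11 of 51 and 67 of 103 with Tcf7. Tcf7 was more spread in the control, with 41.9% of its UMIs in the T-like and 31.9% in the innate lymphoid-like cluster, against 80.7% and 3.52% in the Mll3-labelled library. Without the T-like clusters, chosen for this check after seeing the data, 3 of the 10 genes were at least 2-fold higher under the Mll3 label, namely Trbc1 (log2 ratio 2.34), Trbc2 (2.23) and Trdc (1.66). The Trdc ratio rests on few UMIs, as the T-like clusters held 88 of 92 control and 304 of 316 Mll3-labelled ones. A single barcode of another cluster held 12.0% of the control Tcf7 UMIs.

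The T-like clusters were mixed with respect to the receptor. Of 63 control T-like barcodes, 15 had Trbc1 or Trbc2, 13 had Bcl11b, 11 had Tcf7 and 9 had Cd3g. Of 138 Mll3-labelled T-like barcodes, 75 had Trbc1 or Trbc2, 65 had Bcl11b, 67 had Tcf7 and 55 had Cd3g. Dntt was found in 63 of 63 and 136 of 138, and B-lineage genes were present too, with Cd79a, a B-cell receptor chain, in 4 and 28, Cd79b in 28 and 65, Ebf1 in 8 and 46, Blnk in 17 and 45 and Rag1 in 11 and 44. Within these clusters Cd3g was at 298 CPM in the control and 1002 CPM in the Mll3-labelled library, and Bcl11b at 119 and 230 CPM. At Leiden resolution 1.0 the T-like name fell on a single cluster of 79 barcodes, against 35 and 185 here, and at 0.3 on none, so these barcode numbers and shares depend on the resolution. The T-like barcodes at the resolution used differed between these libraries both in number and in the share with receptor transcripts, and clusters 4 and 13 contributed in different proportions.

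**Figure D3:**
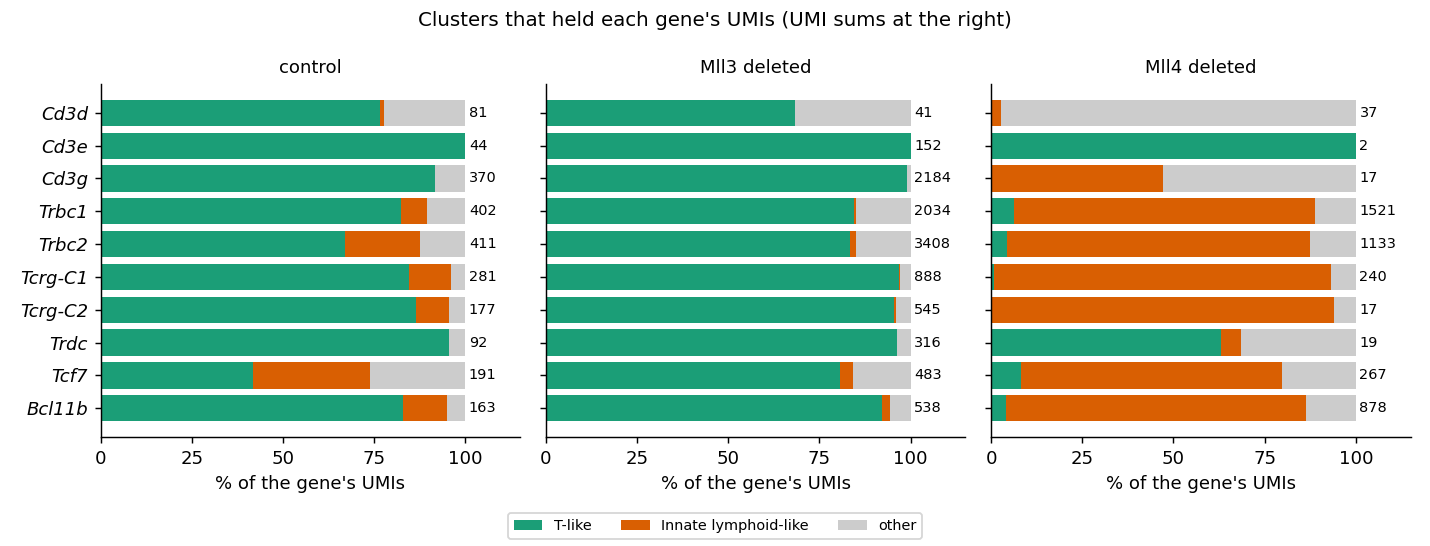
For each gene (y axis), the share of its UMIs (x axis, percent) found in T-like, innate lymphoid-like and all other clusters in 3 libraries, with the summed UMIs at the right of each bar. Green T-like bars hold most UMIs of each gene in the control, except Tcf7 (41.9%), and in the Mll3-labelled library, and orange innate lymphoid-like bars hold most UMIs of Trbc1, Trbc2, Tcrg-C1, Tcrg-C2, Tcf7 and Bcl11b in the Mll4-labelled library.

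In the Mll4-labelled library the constant regions and transcription factors were found mainly in the innate lymphoid-like cluster. Its 346 barcodes, 7.22% of the library (6.50 to 7.99), held 82.7% of the Trbc1 and Trbc2 UMIs, 92.5% of Tcrg-C1, 71.5% of Tcf7 and 82.1% of Bcl11b. Trbc1 was found in 253 of the 346 barcodes (73.1%) at 424 CPM, Trbc2 in 217 (62.7%) at 318 CPM and Bcl11b in 209 (60.4%) at 244 CPM. CD3 was nearly absent there, with 1 UMI of Cd3d, 0 of Cd3e and 8 of Cd3g, and Trdc had 1 UMI. Tcrg-C4 was found in 216 barcodes (62.4%) and Trac in 0. Without this cluster the Mll4-labelled log2 ratios were -0.47 for Trbc1, -0.74 for Trbc2 and 0.15 for Bcl11b, and 0 of the 10 genes were at least 2-fold above the control.

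The same cluster in the control, 47 barcodes, had the same absences. Cd3e, Cd3g and Trdc had 0 UMIs and Cd3d had 1, while Trbc2 was found in 20 barcodes (42.6%), Tcf7 in 19 (40.4%) and Bcl11b in 13 (27.7%). Depth was lower in these control barcodes, with medians of 4917 against 7571.5 UMIs. Thinned to 3000 UMIs, Bcl11b was found in 5 of 47 control (10.6%) and 138 of 334 Mll4-labelled barcodes (41.3%), and Trbc1 in 8 (17.0%) and 184 (55.1%). Unthinned, Tcf7 was found in 75 of the 346 Mll4-labelled barcodes (21.7%). In CPM, Bcl11b was at 61.8 in the control and 244 in the Mll4-labelled cluster, and Tcf7 at 188 and 64.6. The ratio of Trbc2 to Trbc1 UMIs was 2.93 (1.90 to 4.64) in the control and 0.7496 (0.688 to 0.816) in the Mll4-labelled barcodes of the cluster. In the T-like clusters it was 0.831 (0.705 to 0.978) in the control and 1.66 (1.56 to 1.76) in the Mll3-labelled library.

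Markers of innate lymphoid cells were higher in the Mll4-labelled library but did not follow the 10 genes across the labels. Their summed level was 69.2, 63.2, 305 and 1077.2 CPM under the control, Mll3, Mll4 and Mll3/4 labels. Il7r alone made up 1019.7 CPM of the last sum, in a library where 99.4% of barcodes were B-lineage-like. That sum is therefore not a measure of innate lymphoid cells. Of a list of 12 markers, of which 6 also stand in the T pathway list and 0 among the T-like markers, 8 were at least 2-fold higher and 0 lower in the Mll4-labelled library, 2 and 2 in the Mll3-labelled library and 3 and 4 in the Mll3/4-labelled library. The list gave cluster 7 its name, so its markers there are a description. In cluster 7 of the Mll4-labelled library, Il7r was found in 342 of 346 barcodes, Id2 in 337, Gata3 in 279, Cxcr6 in 260, Il1rl1 in 227, Icos in 220, Il2ra in 141, Zbtb16 in 107, Klrg1 in 16 and Areg in 6. Of 11 natural killer markers, 6 were at least 2-fold higher and 1 lower in that library, but their summed level was 135 CPM against 189 in the control, and within cluster 7 of that library they ranged from 0 barcodes for Gzma and 12 for Ncr1 to 31 for Il2rb, 36 for Klrk1 and 71 for Nkg7. The 13 T-like markers, 5 of which are among the 10 genes, summed to 23.2, 87.1, 29.4 and 1.77 CPM under the control, Mll3, Mll4 and Mll3/4 labels, with Cd3e, Cd3g, Themis, Cd4 and Cd8a at 0 in the last.

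**Figure D4:**
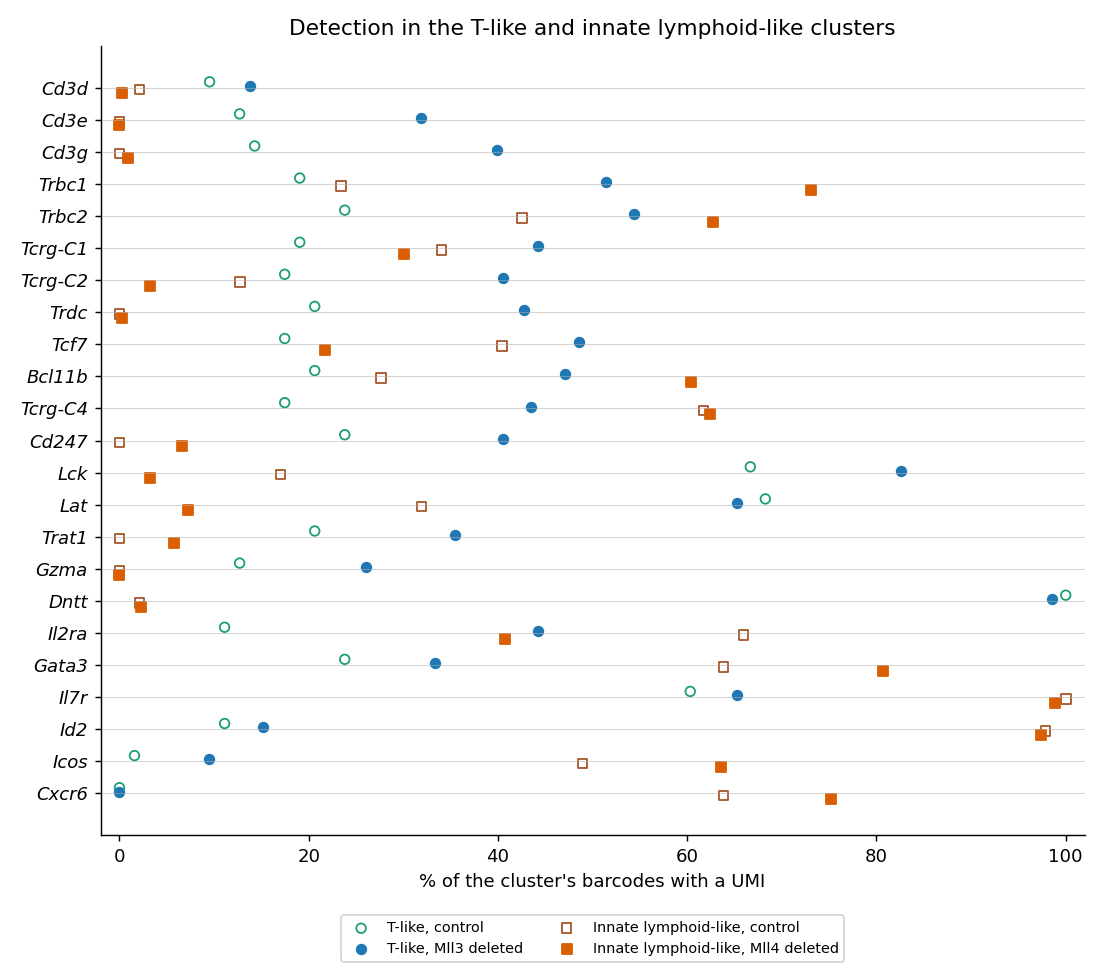
Share of barcodes with at least 1 UMI (x axis, percent) for each gene (y axis) in the T-like clusters of the control (63 barcodes) and Mll3-labelled library (138) and in the innate lymphoid-like cluster of the control (47) and Mll4-labelled library (346). Cd3 genes, Trdc, Gzma and Dntt were found mainly in the T-like barcodes, and Id2, Icos and Cxcr6 mainly in the innate lymphoid-like barcodes.

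Cluster 13 also held 19 Mll4-labelled barcodes, in which B-lineage genes were as common as T genes, so the T-like name does not describe them. Of these, 8 had Trbc1 or Trbc2, 6 had Bcl11b, 3 had Trdc, 2 had Cd3e, 2 had Trac and 0 had Cd3g, Cd3d or Tcrg-C2. Ebf1 was found in 7 (329 CPM, against 103 for Bcl11b), Blnk in 7, Cd79a in 6 and Dntt in 19. Of the 37 Cd3d UMIs of this library, 11 were in neutrophil-like and 10 in granulocyte-monocyte-like barcodes and 0 in cluster 13. In the 63 control T-like barcodes too, some B-lineage genes were as common as T genes. Cd79b was found in 28 and Blnk in 17, but Ebf1 in 8 and Cd79a in 4, beside Trbc1 or Trbc2 in 15. The T-like name is therefore a label of the clusters and not of each barcode.

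The Mll3/4-labelled library held from 0 to 11 UMIs of each of the 10 genes, with Bcl11b in 7 barcodes and Trbc2 in 3. Cd3e, Cd3g, Tcrg-C2 and Tcf7 had 0 UMIs. Of the 11 Bcl11b UMIs, 7 were in B-lineage-like barcodes and 4 in a single barcode of cluster 8. There were 0 T-like barcodes, and 1 innate lymphoid-like barcode, which carried 1 UMI of Trbc1 and 4 of Trbc2. As B-lineage-like barcodes made up 99.4% of this library, the double-deletion label and the cell makeup cannot be told apart for any of the 10 genes.

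By surface phenotype, the MPP3 gate held 78.8% of the Cd3d, Cd3e and Cd3g UMIs in the control and 93.3% in the Mll3-labelled library. Under the Mll4 label it held 62.5% of them, and the MPP4 gate 25%. It held 80.6%, 89.3% and 87.7% of the Trbc1 and Trbc2 UMIs in the control, Mll3- and Mll4-labelled libraries, where it was 44.1%, 22.1% and 69.0% of barcodes. Within the gate the summed Trbc1 and Trbc2 level was 10.96, 185 and 26.9 CPM, and Bcl11b was at 2.34, 19.0 and 9.07 CPM. Without centring of the antibody counts the summed Trbc1 and Trbc2 level in this gate was 16.5, 344 and 32.97 CPM. In the MPP2 gate (CD150 positive, CD48 positive, CD135 negative), with 337, 184 and 144 barcodes, it was 12.1, 54.2 and 3.88 CPM, and without centring 0, 3.30 and 2.70 CPM. In the HSC gate (CD150 positive, CD48 negative, CD135 negative) the summed Trbc1 and Trbc2 level was 0.570, 0.612 and 1.16 CPM. In the MPP4 gate (CD150 negative, CD135 positive), commonly tied to lymphoid priming, it was 3.62, 25.1 and 24.2 CPM. These gates are cuts in antibody signal and not cell types.

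Pairs of genes differed between libraries in the same way. Of barcodes with Bcl11b, 34.5% of 29 in the control, 70.9% of 79 in the Mll3-labelled library and 1.12% of 269 in the Mll4-labelled library also had Cd3g. Trbc1 was found in 65.5%, 91.1% and 79.6% of the same barcodes, and Tcf7 in 44.8%, 86.1% and 13.01%. Bcl11b thus stood with Trbc1 in each of these 3 libraries, with CD3 and Tcf7 in most Mll3-labelled barcodes and with neither in most Mll4-labelled barcodes.

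The wider T pathway was followed with 43 further genes of receptor signaling, surface receptors and transcription, of which 29 averaged 1 CPM or more. In the Mll3-labelled library 6 of these were at least 2-fold higher, 1 lower and 22 between, beside 3.4% and 1.79% of all genes. They included Lef1 (log2 ratio 3.25), a partner of TCF-1; Id3 (2.71), an inhibitor of E proteins; Il2ra (1.82); Il7r (1.48), the interleukin-7 receptor; and Hes1 (1.29), while Zbtb16 was at -1.40. The T-like clusters held 14 of the 1002 Lef1, 41 of the 1005 Id3 and 279 of the 1523 Il7r UMIs of that library. B-lineage markers were also higher there, at 341 against 60.7 CPM with 9 of 10 at least 2-fold higher, and their part in these values was not tested. The signaling genes Lck (0.16), Lat (-0.40), Fyn (0.05) and Cd247 (0.54), the CD3 zeta chain, stayed within 2-fold. The median over the 29 genes was 0.07, beside 0.10 over all genes.

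In the Mll4-labelled library 12 of the 29 were at least 2-fold higher and 3 lower, beside 9.55% and 6.57% of all genes. The higher genes included Il7r (3.35), Hes1 (3.04), Id2 (2.67), Icos (2.54), Ets1 (1.91), Skap1 (1.83) and Il2ra (1.63). The 3 lower genes were Lat (-2.41), Lck (-1.76) and Cd27 (-1.36), the first 2 of them receptor-proximal signaling genes. In the control, however, the T-like clusters held only 143 of the 3267 Lat and 145 of the 1198 Lck UMIs. Most UMIs of both genes thus came from other barcodes, and the part of cell makeup in these ratios was not tested. Gata3 was at 20.9 CPM in the control and 21.2 in the Mll4-labelled library. In the Mll3/4-labelled library 8 were higher and 16 lower, beside 10.6% and 17.4% of all genes. The highest were Zap70 (9.42), Lef1 (8.78), Id3 (8.51) and Il7r (7.62), of which Il7r reached 1019.7 CPM. The lowest included Lat (-5.71), Cd27 (-4.99), Lcp2 (-4.50) and Thy1 (-4.35). B-lineage markers in the same library summed to 13159 CPM, against 60.7 in the control, and their part in these values was not tested.

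The genes whose levels were most like those of the 10 were named by Pearson correlation of log2 CPM over 28 sums of a cluster in a library with at least 50 barcodes each, among 8949 genes. These sums share libraries and depth, so the values are descriptions. For the summed CD3 genes they were Gzma (0.919), Trat1 (0.876), Dyrk4 (0.872), Cd247 (0.812) and Il2ra (0.783). For Tcf7 they were Il2ra (0.937), Trat1 (0.934), Sh2d2a (0.917), Cd247 (0.870) and Thy1 (0.867). For Bcl11b they included Il2ra (0.974), Trat1 (0.929), Skap1 (0.912) and Sh2d2a (0.903).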

How the data were processed

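Gene expression and 6 surface antibodies were measured in 4 libraries. The deposited matrices hold raw counts of UMIs and of antibody tags per barcode. Per the submitters' processing notes they were made with Cell Ranger 6.1.1 on mm10, and per the labels' protocols from 10x Genomics 3-prime libraries. Of the gene identifiers, 32158 of 32285 were found in GENCODE M21 (GRCm38, the same build).

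UMIs were summed per library over the kept barcodes and scaled to the total of 119328763, 105907176, 120700343 and 50792614 gene UMIs (control, Mll3, Mll4 and Mll3/4 labels). Ratios add 0.5 UMIs to both sums. A count of 0 was replaced by 3 UMIs per library for bounds. Barcodes were clustered jointly with scanpy 1.11.5 (2000 variable genes without T-lineage genes, 30 components, 15 neighbours, Leiden resolution 0.6) without batch correction. A name needed at least 3 of a type's markers 2-fold above the other barcodes with 20 CPM, and either a marker among the cluster's top 10 genes or most of the list raised. That last condition was set after the clusters had been seen. A depth condition also applied to clusters with no such marker among their top genes. The whole rule leaves 8 of 21 clusters unnamed, none of them led by T or innate lymphoid markers. Of these, clusters 2 and 10 had 3 and 4 markers raised and failed the last condition, and the others had fewer than 3. Antibody counts were centred log ratios (natural log). Genes named beyond the 10 and the pathway list are cell type markers and genes from the 5 most correlated with the summed CD3 genes, Tcf7 and Bcl11b. Tcrg-C4 and Kit lie outside that rule and were chosen after their values were seen. No doublets were removed in the values reported. Scrublet's own threshold called 1, 1, 169 and 0 barcodes, too few in 3 libraries for it to have worked. The steps were tested on simulated data. The genes and lists were chosen with earlier results of these data known. Another 17 settings were tried, and 4 more were chosen after seeing the data. A few genes of these lists are counted but not reported by name here.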

Additional observations from a re-analysis of the deposited data

Results flagged for a closer look

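Barcodes left out by the filter also carried these transcripts, at a higher share than in the control. Outside the filter, Trbc1 or Trbc2 was found in 15 of 459 Mll3-labelled barcodes (3.27%) and 92 of 2909 Mll4-labelled barcodes (3.16%), against 2 of 408 control barcodes (0.490%). Bcl11b was found outside the filter in 68 of 2909 Mll4-labelled barcodes (2.34%), against 0 of 408 in the control, which allows a share of up to 0.735%. Co-detection was met outside the filter by 0 control, 2 Mll3-labelled and 0 Mll4-labelled barcodes. Of the Mll4-labelled barcodes with over 10% mitochondrial UMIs, 42 of 473 (8.88%) had Bcl11b, and of those under 1000 genes 37 of 2634 (1.40%).
The median depth of barcodes outside the filter was 1958.5 UMIs in the control, 2377 in the Mll3-labelled and 672 in the Mll4-labelled library.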

How the results depend on the processing

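Under 8 other settings for the ratios, 217 of 240 values moved by less than their counting interval, 23 moved by more and 1 changed sign (Tcrg-C1 under the Mll4 label, to 1.23). With stricter filtering (2000 genes, 5% mitochondrial UMIs), 1 gene, Cd3d at -1.17, was at least 2-fold below the control under the Mll3 label. With equal weight per barcode, 5 genes were above and 3 below under the Mll4 label. Removing doublets, TMM and median-of-ratios scaling left all 30 ratios within their intervals, with the median of all genes shifted by at most 0.11 (log2).

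Leaving out clusters was chosen after seeing the data, and Cd3e then had no ratio without the T-like clusters. Without the T-like clusters, 3 genes were above the control under the Mll3 label, where Cd3g was -0.30, Tcrg-C1 -0.37 and Tcf7 -0.066, and 5 were above and 0 below under the Mll4 label, where Cd3d was 0.92 and Trdc 0.71. This Trdc value rests on few UMIs, as the T-like clusters held 88 of 92 control and 12 of 19 Mll4-labelled ones. Without the innate lymphoid-like cluster, 0 genes were above under the Mll4 label, where Trbc1 was -0.47 and Trbc2 -0.74. Without that and the mast/basophil-, monocyte/macrophage- and plasma-like clusters, 0 were above, with Trbc1 at -0.62, Trbc2 at -1.14 and Bcl11b at -0.73.

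The Mll3-labelled share co-detecting was 0.262% for all 3 Cd3 genes and 0.394% thinned to 3000 UMIs. With 1 Cd3 gene enough, the Mll4-labelled share was 0.167%. At Leiden resolution 0.3 no cluster was T-like, so the T-like shares were 0% for the Cd3 genes and for Trbc1 and Trbc2 in the control and Mll3-labelled libraries, and the innate lymphoid-like cluster of the Mll4-labelled library held 89.7% of Trbc1 and Trbc2 and 87.1% of Bcl11b UMIs. At resolution 1.0 the Mll3-labelled T-like share of Trbc1 and Trbc2 was 78.5%. With T genes kept in the clustering, T and innate lymphoid barcodes merged into 1 T-like cluster. It held 95.6% of control Cd3 UMIs, and 96.1% and 96.5% of Trbc1 and Trbc2 UMIs in the control and Mll3-labelled libraries, and the innate lymphoid-like shares under the Mll4 label were 0%. With antibody counts not centred, the MPP3 gate held 90.5% of control Cd3 UMIs and 85.85%, 86.8% and 77.6% of Trbc1 and Trbc2 UMIs in the control, Mll3- and Mll4-labelled libraries. With a minimum of 5 CPM, 20 pathway genes passed. Of these, 6 were higher under the Mll4 label, beside 6.42% of all genes passing. Under the Mll3/4 label 8 were lower, beside 13.7% of all genes passing. The cause of these moves was not tested. Few UMIs limit Cd3d, Cd3e and every Mll3/4-labelled value. The same limit holds for Cd3g, Trdc and Tcrg-C2 under the Mll4 label, with 17, 19 and 17 UMIs. No paired analysis was possible because each genotype has 1 library.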
